A study of Mus musculus with 6 samples.

Results

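Ion channel subunits of the voltage-gated sodium, voltage-gated calcium and potassium channel families were examined in RNA sequencing libraries of mouse heart muscle. The genes were the protein-coding genes of GENCODE release M21 (GRCm38) whose symbol starts with Kcn, with Cacn or with Scn and a digit, and they numbered 134 of the 55401 genes in the files: 94 potassium, 26 calcium and 14 sodium channel genes. All libraries came from the myocardium of male WT mice with a time label of 8 weeks. The animals had received either a PBS injection (3 libraries, the controls) or an injection of STZ (3 libraries). STZ (streptozotocin) is a beta cell toxin that the series used to induce diabetes, and the series asked what differs in the diabetic myocardium. The labels name neither strain, age, STZ dose nor a glucose value, and they do not say what the time counts from or whether each library is 1 animal. The p-values therefore speak of the differences among these libraries, whose spread may be technical.

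The heartbeat's electrical wave depends on these genes. The sodium channel opens first and drives the upstroke of the action potential, the L-type calcium channel then lets in the calcium that triggers contraction, and several potassium currents return the cell to rest. Many of these channels join pore-forming subunits with partner proteins that set their amount at the membrane and their timing. The mouse ventricle repolarizes quickly, through a large transient outward current carried by Kcnd2 and Kcnd3 with the partner Kcnip2, and through slower currents such as that of Kcna5.

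Levels are in FPKM, that is fragments counted per kilobase of a transcript after scaling for the depth of the library. The file of PBS replicate 3 listed 7711 genes (13.9%), so PBS replicates 1 and 2 were compared with the 3 STZ libraries, and the third PBS value is given where it was listed. From the spacing of the lowest values, 1 FPKM stood for roughly 18 to 23 fragments per kilobase of transcript in the 5 complete libraries, and no exact depth is known. The 8 listed cardiomyocyte markers were abundant in every complete library, summing to 13535 and 14332 FPKM in PBS and to between 10611 and 12277 FPKM in STZ. Genes that reached 1 FPKM in 2 or more of the 5 complete libraries counted as detected and were tested with limma on log2(FPKM + 1), a scale that understates the change of low genes. Of 11556 genes tested 672 passed an adjusted p of 0.05, and 62.6% of these were higher in STZ, against 48.5% after centring of the libraries and 73.1% after rescaling to TPM. The median log2 fold change of all tested genes was 0.061, and it was 0.13 after rescaling to TPM.

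By that limit 37 of the 134 channel genes were detected: 23 potassium, 9 calcium and 5 sodium channel genes. Among the 37, 29 reached 1 FPKM in all 5 complete libraries, and 8 had a mean above 10 FPKM. Among the most abundant were the background potassium channel Kcnk3 (TASK-1), the Kcnd partner Kcnip2, the pore of the ATP-sensitive potassium channel Kcnj11 and the modifier subunit Kcng2, with means of 55.5, 42.7, 39.5 and 21.2 FPKM. The values of Kcnk3, Kcnip2 and Kcnj11 over the 5 libraries overlapped from each gene to the next. Kcng2, at 17.1 FPKM or more, did not overlap with Kcnj8, the next gene by mean, which reached at most 16.8 FPKM. Kcng2 did overlap with Kcnh2 and Kcnj5, both lower by mean, which reached 19.5 and 18.4 FPKM. Further down, from Kcnj8 (mean 13.8 FPKM) to Kcnj2 (mean 6.19 FPKM), each gene overlapped with the next.

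**Figure D1:**
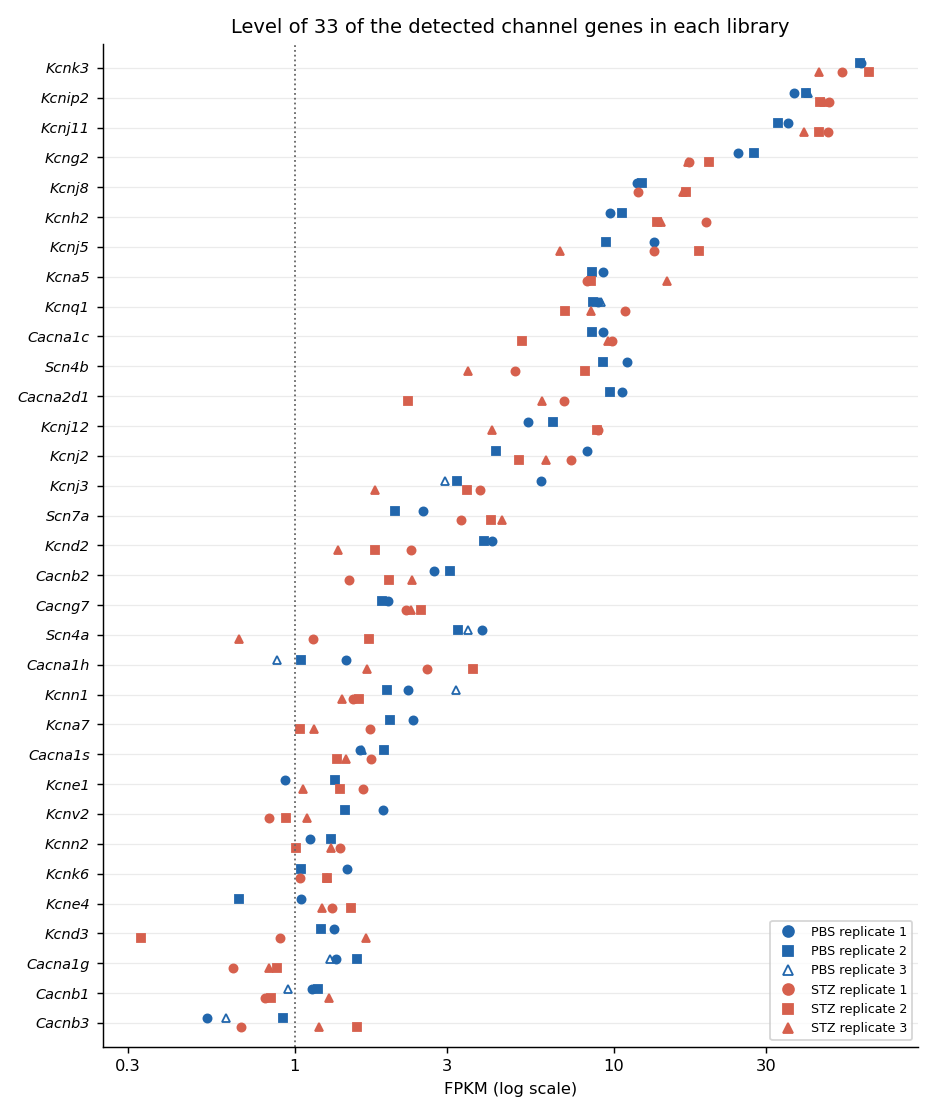
FPKM on a log axis of 33 of the 37 detected channel genes, ordered by mean; each point is 1 library, blue for PBS and red for STZ, with PBS replicate 3 as an open triangle where its file lists the gene. The dotted line marks the detection limit of 1 FPKM, and the levels run from Kcnk3 near 55.5 FPKM down to Cacnb3 near 1.

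The remaining 97 genes were not tested. Of these 12 were listed at 0 in every complete library, 41 stayed below 0.1 FPKM throughout and 42 peaked between 0.1 and 1 FPKM. Only Kcnip3 and Cacng6 exceeded 1 FPKM in a library, with at most 1.44 and 1.05 FPKM, each in 1 library. Just inside the limit lay Cacnb3 and Cacna1g, at means of 0.978 and 1.05 FPKM, and just outside it Kcnip3 and Cacng6, at 0.714 and 0.49 FPKM. Cacna1g and Cacnb3 each met the limit in 2 libraries, those 2 being the PBS libraries for Cacna1g and STZ replicates 2 and 3 for Cacnb3, so their tests are tied to the group in which they were high. Among 28 genes listed as carriers of the classical cardiac currents, 4 were not detected. Kcna4, a pore of the slow transient outward current, lay between 0.18 and 0.59 FPKM, and Cacna1d, an L-type channel of the sinus node, between 0.08 and 0.14 FPKM. Scn2b lay between 0.11 and 0.26 FPKM and Kcnma1, the large calcium-activated potassium channel, between 0.01 and 0.03 FPKM.

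Of the 37 detected genes 13 lay within 1 Mb of another channel gene or in a row of such genes. Each of these 13 had an undetected channel gene in its row. Of all 134 channel genes 58 lay in such rows and 97 were undetected, so these counts are not read as particular to the detected genes. In the row of 5 sodium channel genes on chromosome 2 of GRCm38, from Scn3a at 65457118 to Scn7a ending at 66784914, Scn7a stood at 3.3 FPKM and Scn3a, Scn2a, Scn1a and Scn9a between 0.002 and 0.162 FPKM. On chromosome 11 Kcnj2, a pore of the inward rectifier that holds the resting potential, had 6.19 FPKM beside 0.004 FPKM of Kcnj16. On chromosome 6 the Kcna5 gene (126532551 to 126535412) had 9.84 FPKM and the neighbouring Kcna1 and Kcna6 had 0.142 and 0.214 FPKM. Scn4b and Scn2b, adjacent on chromosome 9, differed likewise, with 7.35 and 0.166 FPKM. These are means over the 5 complete libraries.

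In STZ hearts 2 of the 37 tested channel genes fell, Kcnd2 and Scn4a, and 0 rose by limma, where 421 of all tested genes (3.64%) rose and 251 (2.17%) fell. Calls in either direction made up 5.82% of all tested genes, so the share of channel genes called is close to this background. At an unadjusted p under 0.05 there were 11 lower and 5 higher channel genes, 16 of 37, where 26.6% of all tested genes had such a p. The median log2 fold change of the 37 was -0.13, beside 0.061 for all tested genes, and 16 had a positive sign, where 57% of all tested genes did. For 20 channel genes the ranges of the groups were separate, 12 of them lower and 8 higher in STZ, while over all tested genes 47.4% did not overlap (18.8% lower and 28.7% higher). Beside these values, 7 of the 8 cardiomyocyte markers had a negative sign, 3 of them with an unadjusted p under 0.05, 1 (Actc1) fell (limma adjusted p = 0.0282), and the summed level of the list was lower in all 3 STZ than in both PBS libraries. Their part in the channel gene values was not tested. The summed FPKM of the 134 genes was 339 ± 12.1 FPKM over 2 PBS and 332 ± 23.0 FPKM over 3 STZ libraries (mean ± SD), with overlapping groups.

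**Figure D2:**
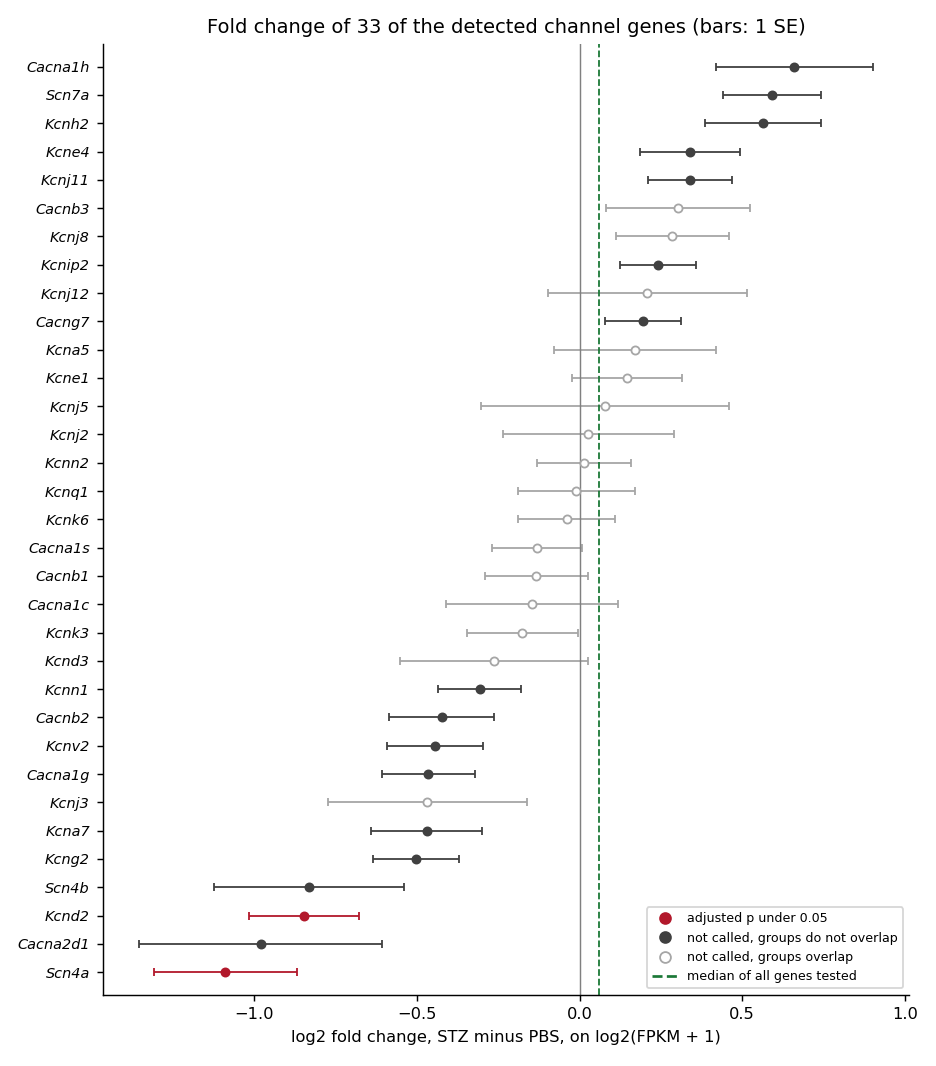
Log2 fold change, STZ minus PBS, on the log2(FPKM + 1) scale for 33 of the 37 tested channel genes, with bars of 1 SE; red points passed an adjusted p of 0.05, filled grey points did not pass but had groups that did not overlap, and open points overlapped. Scn4a (-1.09) and Kcnd2 (-0.85) are the 2 red points, and the dashed line marks the median of all genes at 0.061.

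The promoters of the 2 genes that fell are shown with that of Kcnip2, the partner of Kcnd2, because the values of pore and partner lay in opposite directions (Kcnip2 did not pass the test). The sequences are from RefSeq (GRCm38.p6), 250 bases before to 50 bases after the annotated start, 5′ to 3′ on the gene's strand. Capitals mark the GC box GGGCGG and the CCAAT box CCAAT, searched on both strands together with the TATA box TATAAA and the E box CACGTG. Kcnd2 lies at chr6:21215096-21215395 on the plus strand, Scn4a at chr11:106349341-106349640 on the minus strand and Kcnip2 at chr19:45816014-45816313 on the minus strand. RefSeq starts can differ from the GENCODE gene ends given elsewhere, and the Scn4a window lies inside the GENCODE gene.
Kcnd2: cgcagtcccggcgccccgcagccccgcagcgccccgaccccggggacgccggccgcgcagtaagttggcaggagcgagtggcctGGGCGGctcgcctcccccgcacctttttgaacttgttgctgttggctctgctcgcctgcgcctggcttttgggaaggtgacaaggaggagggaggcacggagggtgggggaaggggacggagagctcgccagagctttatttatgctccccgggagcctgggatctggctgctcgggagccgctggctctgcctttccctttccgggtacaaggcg
Scn4a: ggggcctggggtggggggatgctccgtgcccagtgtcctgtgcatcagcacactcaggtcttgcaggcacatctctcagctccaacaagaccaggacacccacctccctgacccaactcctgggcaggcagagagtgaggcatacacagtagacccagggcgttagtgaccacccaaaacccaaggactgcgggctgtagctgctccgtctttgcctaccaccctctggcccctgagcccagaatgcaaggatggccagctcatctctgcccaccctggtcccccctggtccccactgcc
Kcnip2: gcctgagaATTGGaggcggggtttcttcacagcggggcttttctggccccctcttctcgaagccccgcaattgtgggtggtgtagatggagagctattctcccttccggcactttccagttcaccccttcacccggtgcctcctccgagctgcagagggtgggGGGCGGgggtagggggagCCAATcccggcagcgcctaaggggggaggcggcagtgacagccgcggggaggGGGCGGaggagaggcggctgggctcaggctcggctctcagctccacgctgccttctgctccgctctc
The Kcnd2 window had 68.7% G and C, 26 CpG dinucleotides and 1 GC box. The Scn4a window had 63% G and C but 4 CpG dinucleotides, and none of the 4 motifs was in it. The Kcnip2 window had 67% G and C, 18 CpG dinucleotides, 2 GC boxes and 2 CCAAT boxes. A RefSeq window was found for 99 of the 134 channel genes, taking 1 window for each gene. The GC box was in 56.5% of the 23 windows of detected channel genes, 47.4% of the 76 of undetected ones and 35.9% of the 27025 windows of all genes. The CCAAT box was in 26.1%, 30.3% and 37.9%, the E box in 8.7%, 3.9% and 7.2%, and the TATA box in 0%, 5.3% and 14.2% of the same sets. The windows of all genes were not filtered for protein-coding genes, whereas the channel genes are protein-coding, so these sets are not alike.

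Among the pore subunits of voltage-gated potassium channels, Kcnd2 (Kv4.2, ENSMUSG00000060882, chromosome 6, 21215503 to 21729805) had 4.14 and 3.93 FPKM in the PBS libraries and 2.32, 1.78 and 1.37 FPKM in the STZ libraries. All STZ values lay below both PBS values. Kcnd2 fell from 4.04 ± 0.148 to 1.82 ± 0.476 FPKM (SD, n = 2 and 3), which is -0.85 ± 0.17 (SE) on the log2 scale (limma adjusted p = 0.0434). The sign held in all 16 alternatives, with limma adjusted p from 0.0314 to 0.257, and the call held in 9. It was lost without PBS replicate 1 (limma adjusted p = 0.257), without PBS replicate 2 (limma adjusted p = 0.208), without STZ replicate 2 (limma adjusted p = 0.0827) and without STZ replicate 3 (limma adjusted p = 0.0673). After rescaling to TPM the limma adjusted p was 0.0604. Some alternatives could not turn the sign. The fold change of Kcnd2 was unchanged by dropping the filter, by another variance model and by adding PBS replicate 3, whose file does not list Kcnd2. The lowest limma adjusted p and a held call came from that last setting, which added no Kcnd2 value. The replicate block gave the same fold change as the fit without STZ replicate 3.

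Kcnd3 (Kv4.3), the other pore of the fast transient outward current, was lower than Kcnd2 in the PBS libraries, at 1.33 and 1.21 FPKM. In the STZ libraries it had 0.9, 0.33 and 1.67 FPKM, a spread of 5.06 times and the widest among the detected channel genes, and the groups overlapped (limma adjusted p = 0.599). Kcnd2 made up 75.7% and 76.5% of the FPKM of Kcnd2 and Kcnd3 in PBS and 72.1%, 84.4% and 45.1% in STZ. The calcium-binding partner Kcnip2 (KChIP2) had 36.8, 40.1 and 40.7 FPKM in the 3 PBS libraries and 47.1, 44.2 and 45.5 FPKM in the STZ libraries. All STZ values of Kcnip2 lay above the PBS values, but it did not pass (log2 fold change 0.24 ± 0.12, limma adjusted p = 0.24). There were 8.88 and 10.2 FPKM of Kcnip2 for each FPKM of Kcnd2 in PBS and 20.3, 24.8 and 33.2 in STZ, a ratio given without a test.

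Kcna5 (Kv1.5) had 9.25 and 8.53 FPKM in PBS and 8.26, 8.45 and 14.7 FPKM in STZ, STZ replicate 3 alone standing high. Without that library its log2 fold change was -0.079, against 0.17 with it. Kcna7, a Kv1 relative, had 2.35 and 1.99 FPKM in PBS and 1.72, 1.04 and 1.15 FPKM in STZ (limma adjusted p = 0.145).

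Delayed rectifier genes lay on the other side or near 0. Kcnh2 (the mouse ERG channel of the rapid delayed rectifier) had 9.75 and 10.6 FPKM in PBS and 19.5, 13.7 and 14.0 FPKM in STZ. The groups did not overlap, and the test was not passed (log2 fold change 0.56 ± 0.18, limma adjusted p = 0.114). Its share of the FPKM of all voltage-gated potassium channel pores was 24.1% ± 2.40 in the 2 PBS and 33.7% ± 5.42 in the 3 STZ libraries (mean ± SD), beside 9.52% ± 0.01 and 3.94% ± 1.00 for Kcnd2. Kcnq1, the pore of the slow delayed rectifier, had 8.89, 8.59 and 9.14 FPKM in PBS and 10.8, 7.05 and 8.51 FPKM in STZ, with a log2 fold change of -0.011 ± 0.18 (SE). Its partner Kcne1 ranged from 0.93 to 1.64 FPKM over the 5 complete libraries (limma adjusted p = 0.624), and Kcne4, an inhibitory partner of several potassium channels, had 1.05 and 0.67 FPKM in PBS and 1.31, 1.5 and 1.22 FPKM in STZ (limma adjusted p = 0.218).

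Modifier subunits form no channel of their own and change the pores they join. Kcng2, the most abundant of them, had 24.6 and 27.4 FPKM in PBS and 17.2, 19.9 and 17.1 FPKM in STZ, without overlap (log2 fold change -0.50 ± 0.13, limma adjusted p = 0.0773). Kcnv2 had 1.89 and 1.44 FPKM in PBS and 0.83, 0.94 and 1.09 FPKM in STZ (limma adjusted p = 0.123). The 10 modifier genes summed to 27.8 ± 1.83 FPKM in PBS and 19.1 ± 1.61 FPKM in STZ (SD, n = 2 and 3), and Kcng2 supplied most of that sum. Of the 2 tested modifier genes 0 passed in limma, and both had an unadjusted p under 0.05.

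Among the inward rectifiers 6 of 15 were detected, 0 passed in limma, 1 had an unadjusted p under 0.05 and 5 had a positive sign. Kcnj11 (Kir6.2, ENSMUSG00000096146, chromosome 7, 46093953 to 46100764), which closes when ATP is plentiful, had 35.2 and 32.7 FPKM in PBS and 46.7, 43.8 and 39.3 FPKM in STZ. All STZ values were above the PBS values, by 0.34 ± 0.13 (SE) on the log2 scale (limma adjusted p = 0.161). Abcc9, the sulfonylurea receptor that completes this channel in the ventricle and is no member of the family, had 25.8 and 24.6 FPKM in PBS and 23.6, 20.3 and 23.4 FPKM in STZ (limma adjusted p = 0.449). Kcnj8, the Kir6.1 pore known from vascular muscle, had 11.8 and 12.2 FPKM in PBS and 11.9, 16.8 and 16.5 FPKM in STZ, with overlap. Beside it, the 9 listed smooth muscle and pericyte markers summed to 572 and 606 FPKM in PBS and to between 597 and 707 FPKM in STZ, of which 8 were detected and none was at 0 in every library. Most of that sum was Des, which heart muscle also expresses. A sum without Des was chosen after its values were seen. It was 185 and 169 FPKM in PBS and 135, 149 and 178 FPKM in STZ. Of the 8 tested markers, Des included, 5 had a negative sign and 3 a positive one. Only Acta2 passed, and it fell from 59.7 and 42.8 FPKM in PBS to 20.8, 21.9 and 23.6 FPKM in STZ (limma adjusted p = 0.0221). Pdgfrb lay the other way, with 10.5, 11.1 and 9.25 FPKM in the 3 PBS libraries and 14.0, 13.7 and 16.4 FPKM in STZ (limma adjusted p = 0.115). The part of smooth muscle cells and pericytes in the Kcnj8 values was not tested. In tissue libraries such as these, fewer cells of a type and less RNA per cell cannot be told apart.

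Kcnj2 and Kcnj12, which carry the resting inward rectifier, had overlapping groups. Kcnj2 had 8.22 and 4.27 FPKM in PBS and 7.32, 5.04 and 6.12 FPKM in STZ, and Kcnj12 had 5.38 and 6.45 FPKM in PBS and 8.91, 8.88 and 4.16 FPKM in STZ. Kcnj3 and Kcnj5 form the acetylcholine-gated channel of the atria. Kcnj3 had 5.9, 3.23 and 2.95 FPKM in the 3 PBS libraries and 3.81, 3.46 and 1.78 FPKM in STZ (limma adjusted p = 0.374), and 31.1% of its exon length is overlapped by a gene on the opposite strand. Kcnj5 had 13.4 and 9.47 FPKM in PBS and 13.3, 18.4 and 6.78 FPKM in STZ (limma adjusted p = 0.913), and its sign turned without PBS replicate 2 (-0.15) or STZ replicate 2 (-0.22).

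Atrial markers varied between the libraries. The atrial light chain Myl7 had 262, 37.9 and 0.21 FPKM in PBS replicates 1 to 3 and 357, 73.7 and 0.28 FPKM in the STZ replicates. The 9 listed atrial markers summed to 321 and 1360 FPKM in PBS and to between 983 and 3343 FPKM in STZ. Nppa made up most of the sum, and 7 of the 9 were detected. The markers did not all order the libraries alike. In STZ replicate 3 Sln and Myl4 had 0 and 0.21 FPKM, but Nppa had 1591 FPKM there and 876 FPKM in STZ replicate 2. Kcnj3 was highest in PBS replicate 1 and lowest in STZ replicate 3, libraries in which Myl7 was high and near 0, and it was 2.95 FPKM in PBS replicate 3, where Myl7 was also near 0. In STZ replicate 1, which held the most Myl7, Kcnj3 was 3.81 FPKM. Kcnj5 was lowest in STZ replicate 3, higher in PBS replicate 1 than in PBS replicate 2, and highest in STZ replicate 2. The part of atrial tissue in the values of Kcnj3, Kcnj5, Kcna5 and Kcnk3 was not tested.

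Of 14 two-pore background potassium channels 2 were detected and 0 passed in limma, with 0 at an unadjusted p under 0.05. Kcnk3 had 59.7 and 59.0 FPKM in PBS and 51.7, 63.1 and 44.1 FPKM in STZ, with overlap (log2 fold change -0.18 ± 0.17, limma adjusted p = 0.548), and it supplied over 95% of its family's FPKM in each library. Kcnk6 lay between 1.04 and 1.46 FPKM. Of the 12 calcium- and sodium-activated potassium channel genes, Kcnn1 and Kcnn2 were detected. Kcnn1 had 2.26, 1.95 and 3.21 FPKM in the 3 PBS libraries and 1.52, 1.59 and 1.41 FPKM in STZ (log2 fold change -0.31 ± 0.13, limma adjusted p = 0.185, and 0.0935 with PBS replicate 3). Kcnn2, an SK channel of the atria and ventricle, had 1.12 and 1.3 FPKM in PBS and 1.39, 1.01 and 1.3 FPKM in STZ.

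Of the 10 sodium channel pore genes 3 were detected, and 1 of them passed. Scn4a (Nav1.4, ENSMUSG00000001027, chromosome 11, 106318592 to 106353288), the sodium channel of skeletal muscle, had 3.85, 3.24 and 3.48 FPKM in the 3 PBS libraries and 1.14, 1.71 and 0.67 FPKM in STZ. Every STZ value lay below every PBS value, the third PBS library included. Scn4a fell from 3.54 ± 0.431 to 1.17 ± 0.521 FPKM (SD, n = 2 and 3), which is -1.09 ± 0.22 (SE) on the log2 scale (limma adjusted p = 0.0445, and 0.017 with PBS replicate 3 in the fit). The sign held in all 16 alternatives, with limma adjusted p from 0.017 to 0.257, and the call held in 7. It was lost without PBS replicate 1 (limma adjusted p = 0.257), PBS replicate 2 (limma adjusted p = 0.183), STZ replicate 1 (limma adjusted p = 0.0904) or STZ replicate 3 (limma adjusted p = 0.0632), and after rescaling to TPM (limma adjusted p = 0.0645). Pseudocounts of 0.5 and 0.1 gave limma adjusted p = 0.0505 and 0.0609. The fold change of Scn4a was unchanged by dropping the filter and by another variance model, so its sign could not turn there. The replicate block gave the same fold change as the fit without STZ replicate 3. Scn4a made up 9.79% ± 0.412 of the sodium channel pores in PBS and 3.65% ± 1.47 in STZ (SD, n = 2 and 3).

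Skeletal muscle markers were set beside Scn4a. The skeletal myosins Myh1, Myh2 and Myh4 were at 0 to 0.02 FPKM in every complete library, Myh4 being listed at 0 in all of them. Of the 8 listed markers 2 were detected, Ckm and Acta1, which heart muscle also expresses, and the list summed to 743 and 943 FPKM in PBS and to between 407 and 436 FPKM in STZ. The calcium channel of skeletal muscle, Cacna1s, had 1.6, 1.91 and 1.62 FPKM in the 3 PBS libraries and 1.74, 1.36 and 1.45 FPKM in STZ (limma adjusted p = 0.585), with 20.0% of its exon length overlapped by a gene on the opposite strand.

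Scn7a (Nax), a sodium-sensing relative that opens with extracellular sodium, lay the other way from Scn4a. It had 2.52 and 2.06 FPKM in PBS and 3.32, 4.11 and 4.47 FPKM in STZ, without overlap (log2 fold change 0.59 ± 0.15, limma adjusted p = 0.0751), and its share of the sodium channel pores was 6.32% ± 0.396 in PBS and 13% ± 4.08 in STZ (SD, n = 2 and 3). The 14 listed neuron and Schwann cell markers summed to 5.03 and 6.86 FPKM in PBS and to between 6.06 and 6.62 FPKM in STZ, with 1 detected and 3, Th and Chat among them, at 0 in the complete libraries. The part of such cells in the Scn7a values was not tested.

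The sodium channel beta subunits are single-span partners that anchor the pore and tune its opening. Scn4b had 11.0 and 9.24 FPKM in PBS and 4.91, 8.1 and 3.5 FPKM in STZ. All STZ values were below the PBS values, but they differed from each other by 2.31 times, and the test was not passed (log2 fold change -0.83 ± 0.29, limma adjusted p = 0.136). The 4 beta subunit genes summed to 18.1 ± 2.13 FPKM in PBS and 12.1 ± 2.63 FPKM in STZ (SD, n = 2 and 3).

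**Figure D3:**
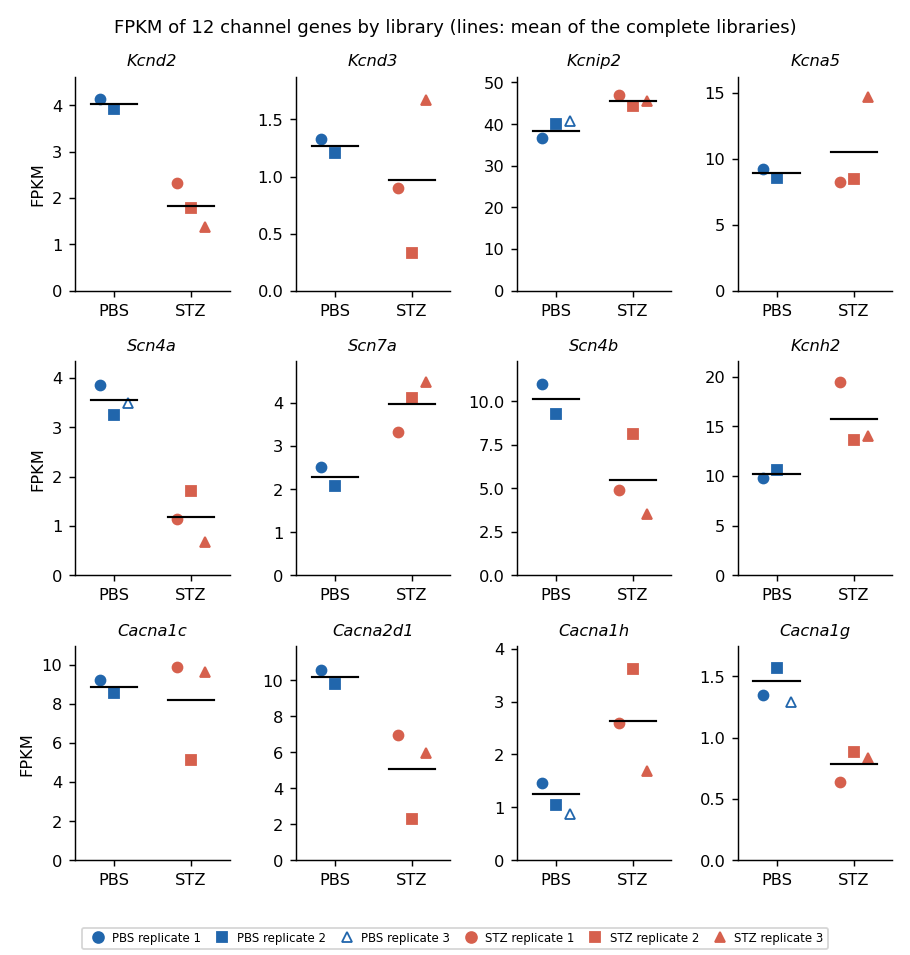
FPKM by library for 12 potassium, sodium and calcium channel genes, PBS in blue and STZ in red, with marker shape for the replicate number, an open triangle for PBS replicate 3 and a line at the mean of the complete libraries; each axis starts at 0. Kcnd2 and Scn4a show separate groups, whereas Kcnd3, Kcna5 and Cacna1c overlap.

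The L-type calcium channel of the ventricle is built from the pore Cacna1c, the intracellular beta subunit Cacnb2 and the extracellular alpha2delta subunit Cacna2d1. Cacna1c had 9.23 and 8.54 FPKM in PBS and 9.9, 5.15 and 9.61 FPKM in STZ, STZ replicate 2 alone standing low (log2 fold change -0.15 ± 0.26, limma adjusted p = 0.758). Without that library the log2 fold change was 0.12. Cacna2d1 (ENSMUSG00000040118, chromosome 5, 15934691 to 16374511) had 10.6 and 9.76 FPKM in PBS and 6.97, 2.27 and 5.95 FPKM in STZ. Its groups did not overlap, STZ replicate 2 was again lowest, and the test was not passed (log2 fold change -0.98 ± 0.37, limma adjusted p = 0.16). Without STZ replicate 2 it was -0.58 on the log2 scale. For each FPKM of Cacna1c there were 1.15 and 1.14 FPKM of Cacna2d1 in PBS and 0.704, 0.441 and 0.619 in STZ, a ratio given without a test.

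Cacnb2 had 2.74 and 3.06 FPKM in PBS and 1.48, 1.97 and 2.33 FPKM in STZ, without overlap (log2 fold change -0.42 ± 0.16, limma adjusted p = 0.16). Cacnb1 and Cacnb3, the other detected beta subunits, overlapped between the groups, also with PBS replicate 3. Cacng7, a gamma subunit best known as a partner of neuronal glutamate receptors, had 1.96 and 1.88 FPKM in PBS and 2.23, 2.48 and 2.32 FPKM in STZ (limma adjusted p = 0.34). It was the only detected gene of 8 gamma subunits.

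The T-type calcium channel pores, which open at low voltage in pacemaker tissue and in the fetal ventricle, lay on opposite sides. Cacna1h (Cav3.2) had 1.45, 1.05 and 0.88 FPKM in the 3 PBS libraries and 2.59, 3.61 and 1.68 FPKM in STZ, and every STZ value was above every PBS value (log2 fold change 0.66 ± 0.24, limma adjusted p = 0.149, and 0.0654 with PBS replicate 3). Cacna1g (Cav3.1) had 1.35, 1.57 and 1.29 FPKM in the 3 PBS libraries and 0.64, 0.88 and 0.83 FPKM in STZ, every STZ value being lower (log2 fold change -0.47 ± 0.14, limma adjusted p = 0.107, and 0.0613 with PBS replicate 3). Cacna1h made up 51.8% and 40.1% of the FPKM of this pair in PBS replicates 1 and 2 and 80.2%, 80.4% and 66.9% in the STZ libraries. Neither gene passed, and the share was not tested. Cacna1g reached 1 FPKM only in the PBS libraries, so its test and its place in this share are tied to the group in which it was high.

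The third PBS library listed 39 of the 134 channel genes, 12 of them among the 37 tested. With it, the groups of 3 and 3 libraries did not overlap for 7 of these 12 genes: 3 were higher in STZ, Cacna1h and Kcnip2 among them, and 4 were lower, Scn4a, Cacna1g and Kcnn1 among them. Cacna1g was tested only because it reached 1 FPKM in PBS, so its place in this count is tied to that group. Over all tested genes that the file of PBS replicate 3 lists, 41.9% did not overlap. Scn4a was the only one of the 12 to pass with that library in the fit, where 12.4% of the 4811 tested genes it lists and 10.1% of all tested genes passed.

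**Figure D4:**
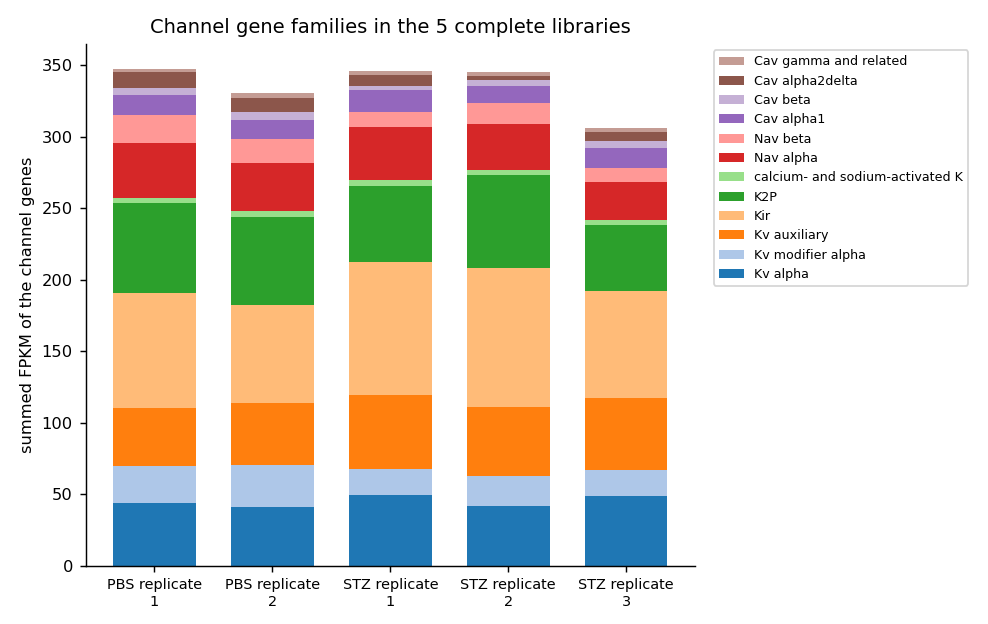
Summed FPKM of the 134 channel genes in each of the 5 complete libraries, stacked by family, with the y axis from 0. The totals lie between 306 and 347 FPKM, and the inward rectifiers are the thickest band in all 5 bars.

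By ion, potassium channel genes made up 74.5% ± 0.629 of the summed channel FPKM in the 2 PBS and 79% ± 1.15 in the 3 STZ libraries (mean ± SD). Sodium channel genes made up 16% ± 0.908 and 13.1% ± 1.10, and calcium channel genes 9.46% ± 0.279 and 7.84% ± 1.46. Over all tested genes 2.17% fell, 26.6% had an unadjusted p under 0.05 and 57% had a positive sign. Of 23 tested potassium channel genes 1 fell and 12 had a positive sign. For sodium channel genes 1 of 5 fell and 1 had a positive sign, and for calcium channel genes 0 of 9 passed in limma, 4 had an unadjusted p under 0.05 and 3 had a positive sign. Length of the transcript was measured beside these values. Across the 37 genes the correlation of log2 exon length with the log2 fold change was -0.30, and across all 10066 tested protein-coding genes it was -0.029, given as descriptions over genes that share the same 5 libraries.

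Channel partners outside these families were listed too: pacemaker channels, receptors, anchoring and trafficking proteins, pumps and transcription factors that are known to act on channels. Of 42 listed genes 34 were tested, 3 rose and 2 fell, where 3.64% of all tested genes rose and 2.17% fell. The list was chosen with earlier results known, and nothing particular to it is read from these counts. Irx3, a transcription factor of the ventricular conduction system, rose from 8.67 ± 0.0141 to 31.4 ± 5.85 FPKM (log2 fold change 1.73 ± 0.17, limma adjusted p = 0.0082), and the magnesium-permeable channel Trpm7 rose from 2.84 ± 0.0354 to 5.47 ± 0.387 FPKM (limma adjusted p = 0.0259). Irx5 is a relative of Irx3 known to repress Kcnd2 in the mouse ventricle. It had 2.19 and 2.32 FPKM in PBS and 4.9, 2.71 and 3.56 FPKM in STZ, and did not pass (limma adjusted p = 0.178). Its part in the Kcnd2 values was not tested. The pacemaker channel Hcn2 fell, at 3.01 ± 0.32 against 8.71 ± 0.502 FPKM (SD, n = 3 STZ and 2 PBS, limma adjusted p = 0.0082). Hcn4 had 1.63 and 1.64 FPKM in PBS and 0.56, 0.42 and 0.47 FPKM in STZ. It is the other gene counted as fallen (limma adjusted p = 0.0278), but it reached 1 FPKM only in the PBS libraries, so its test is tied to the group in which it was high. Without PBS replicate 1 and without PBS replicate 2, Irx3, Trpm7 and Hcn2 kept their sign and did not pass, with limma adjusted p between 0.0773 and 0.211, and Hcn4 was not tested there. Trpm7 had limma adjusted p of 0.0575 without STZ replicate 1 and 0.0548 without STZ replicate 3, and Hcn4 had 0.0539 without STZ replicate 2 and 0.0527 without STZ replicate 3. With no filter on low values Trpm7 and Hcn4 had limma adjusted p of 0.079 and 0.084.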

How the data were processed

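RNA libraries of the myocardium were poly(A)-selected, and the second strand was labelled with dUTP, per the labels' protocols. The authors deposited FPKM per gene with 2 decimals, per the file headers; per the submitters' processing notes the tools were HISAT2 2.0.4, StringTie 1.3.4d and cutadapt 1.9, on build GRCm38. The strand setting and annotation release were not given in the sources used here, so reads of overlapping genes may be shared. Counts were not used, the depth is a rough estimate, and no counting interval is given.

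Symbols came from GENCODE M21, and 55141 of 55401 identifiers matched. The channel genes, the lists and the named genes (those past the threshold, the 10 most abundant, the 5 largest rises and falls, a list of cardiac current genes and partners past the threshold) were chosen with earlier results of these data known. Some genes that this rule takes are not reported here. Other members are named to say which genes a count holds, or described beside their family (Kcna7, Kcnv2, Kcnk6, Kcnn1, Cacna1s and Cacng7). The partners Abcc9 and Irx5 are described although they did not pass. Signs under the alternatives were collected only for genes taken by the naming rule. Genes reaching 1 FPKM in 2 or more fitted libraries were tested with limma 3.58.1 in R 4.3.3 (eBayes with trend) on log2(FPKM + 1), two-sided, with Benjamini-Hochberg adjustment over 11556 genes and a threshold of 0.05. A library listing under 50% of the genes entered only as an alternative. On simulated data for this comparison over 11556 genes, 60% of 100 genes changed by 1 and 90% of 100 changed by 2 on the log2 scale were recovered. The changed genes were drawn only from genes with higher mean levels than Kcnd2 and Scn4a. These shares therefore do not give the recovery at the levels of these 2 genes or of channel genes below them. Alternatives changed the pseudocount, filter, scaling, variance model, replicate block, libraries or threshold, 1 at a time.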

Additional observations from a re-analysis of the deposited data

How the results depend on the processing

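The number of genes called over the whole table was 672. It was 81 with no filter on low values, 64 with the replicate number as a block, 1169 with PBS replicate 3 added, 1642 at a threshold of 0.1, and 24 to 398 when 1 library was left out. Of the channel genes 0 were called higher under the alternatives run, except 1 (Scn7a) at a threshold of 0.1. The 2 called lower became 1 with a pseudocount of 0.1 or 0.5, 0 with no filter (122 channel genes tested), 0 with a filter at 5 FPKM (16 tested, neither Kcnd2 nor Scn4a among them), 0 after rescaling to TPM, 0 with the replicate block, 0 to 1 without 1 library and 4 at a threshold of 0.1. Their median log2 fold change moved to -0.0035 with no filter and to 0.0078 with the filter at 5 FPKM, sets that hold more and fewer genes, from -0.13. It was -0.047 after rescaling to TPM, -0.065 with the replicate block, -0.085 with PBS replicate 3 added, and -0.16 to -0.071 without 1 library (-0.071 without PBS replicate 1, -0.075 without STZ replicate 2 and -0.072 without STZ replicate 3). Where those calls were lost, the cause was not tested. Fewer libraries or other genes entered some of these fits, but the pseudocount and replicate block fits held the same 11556 genes.

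The replicate numbers were not taken to pair the samples, since the labels name nothing that a number shares and not every same-numbered pair correlated above 0.1. Same-numbered PBS and STZ libraries correlated in their deviations at 0.18, -0.05 and 0.15 over 4811 genes, and PBS replicate 2 correlated best with STZ replicate 3 (0.093). Atrial Myl7 followed the number in both groups, as a hint from the data. In the replicate block STZ replicate 3 has no partner, so its fold changes equal those without that library. With the replicate block the calls of Irx3 (limma adjusted p = 0.0513), Hcn2 (0.0595), Trpm7 (0.0916) and Hcn4 (0.101) were lost.

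Among the channel genes taken by the naming rule, signs turned for 6 that did not pass. With 1 library left out, log2 fold changes ran from -0.22 to 0.45 for Kcnj5, from -0.079 to 0.30 for Kcna5, from -0.15 to 0.12 for Kcnq1, from -0.29 to 0.12 for Cacna1c, from -0.38 to 0.43 for Kcnj2 and from -0.046 to 0.086 for Kcnn2. The replicate block gave -0.079 for Kcna5, 0.0011 for Kcnq1 and -0.011 for Kcnn2. Centring gave -0.043 for Kcnj2 and -0.057 for Kcnn2, and quantile normalization -0.022 and -0.053. Rescaling to TPM gave 0.052 for Kcnq1, and rescaling without mitochondrial genes -0.0021 for Kcnn2. All other genes taken by the naming rule kept their sign wherever they were tested under the alternatives run. Another filter or variance model leaves the fold change of a gene as it was, so no sign could turn there. The same holds for adding PBS replicate 3 where its file does not list the gene.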
